A study of Mus musculus with 4 samples.

Results

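Notch receptors, their ligands and the Hey and Hes1 target genes were followed in sorted dental pulp cells of the mouse. The members were 10 genes chosen by symbol (Notch1, Notch2, Notch3, Notch4, Jag1, Dll1, Dll4, Hey1, Heyl and Hes1), and each had a row of its own among the 24216 rows of the table that compares molar with incisor. Notch receptors are single-pass membrane proteins that are cut when a neighbouring cell presents a Jagged or Delta-like ligand. A disintegrin metalloprotease and then gamma-secretase release the intracellular part, which joins the DNA-binding protein Rbpj in the nucleus and switches on repressors of the Hes and Hey families. In vessels, Dll4 is known from endothelial tip and arterial cells and Notch3 and Heyl from the mural cells around them. In teeth, Notch1 is known from the stratum intermedium, a layer of the enamel organ.

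The libraries came from XLacZ4 mice, a strain whose beta-galactosidase reporter marks pericytes and vascular smooth muscle. Teeth were dissociated, the cells were loaded with FDG, which fluoresces once beta-galactosidase has cleaved it, and positive cells were sorted. Pulp of the molar gave 2 libraries and pulp of the incisor gave 2, all of the same strain, and the labels name no treatment, age or sex and give no animal behind each library, so replicates may be technical. The extraction protocol names molars for every library, so tissue was read from the titles, sources and tissue labels. The authors' deposited table holds 1 combined FPKM value per tissue, so no SD and no test over libraries can be given. The depth is unknown. FPKM counts fragments per length of transcript and per depth of sequencing, which is meant to make levels of different genes comparable. The molar to incisor fold still depended on transcript length, as given below, so ratios and shares between genes carry that limit. A gene is named as called where the authors' q lay under 0.05, and the log2 fold is the authors', molar over incisor. With 1 value per tissue, effects of handling, library or sequencing run and effects of the tooth cannot be told apart.

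Of the 10 members, all tested, 6 were called in the authors' deposited table. Hey1, Dll1 and Dll4 were higher in molar, 3 of 10, where 11.9% of the 18770 tested rows were called in that direction. Notch2, Jag1 and Heyl were lower in molar, 3 of 10, where 4.28% of tested rows were called that way. The members, and the lists below, were chosen with earlier results of these data known, so their counts beside these shares are no test. Notch1, Notch3, Notch4 and Hes1 were not called. Ligands and Hey genes were thus called in both directions, and a single receptor was called. Rows of at least 1 FPKM in either tissue were called more often, 21.8% of 13198, and 9 of the 10 members lay among them. The median log2((molar FPKM + 1) / (incisor FPKM + 1)) of the members was 0.57, against 0.21 over all tested rows. The members' median was 0.23 with equal FPKM totals and -0.29 over the members of at least 5 FPKM in either tissue. Such settings also change the median over all rows, which is not given for them, so 0.21 is not their counterpart.

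**Figure D1:**
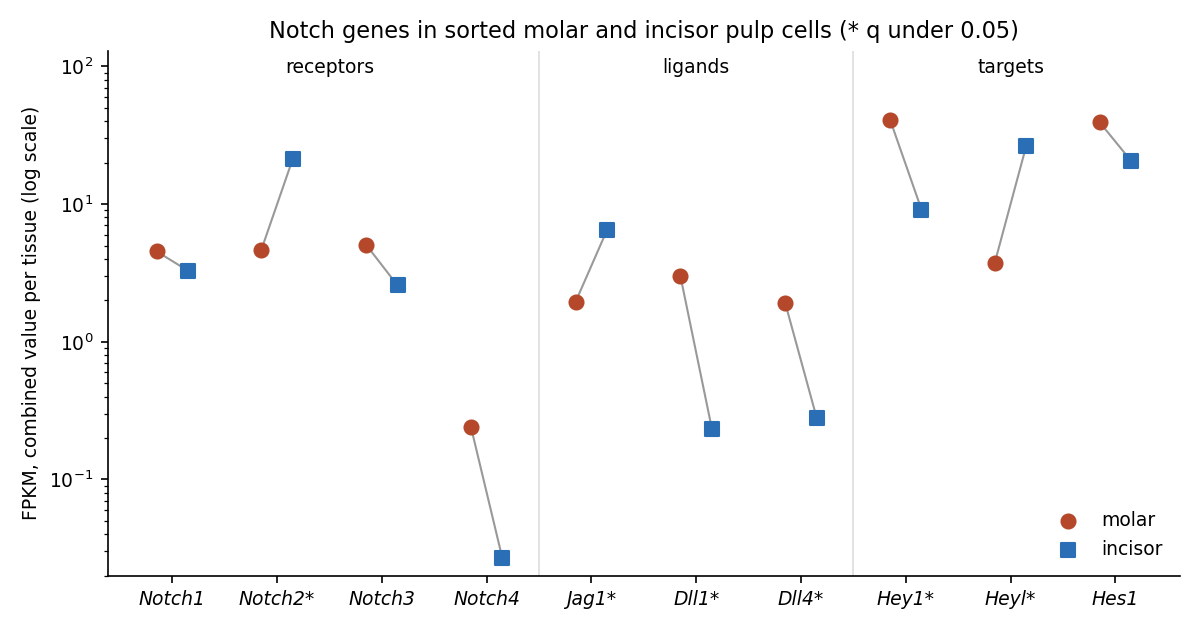
Combined FPKM of each member in molar (circles, left) and incisor (squares, right) on a log scale, 1 value per tissue with no error. Hey1 stands at 41.1 FPKM in molar and 9.14 in incisor, while Heyl, at 3.76 in molar and 26.5 in incisor, crosses it.

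Markers of other cells moved between the tissues and are given here beside the values below. In such sorted bulk samples, fewer cells of a type and less RNA per cell cannot be told apart. Marker rows were not compared with RefSeq intervals. The rows of Tagln (chromosome 9, 45863425 to 45936058) and Amelx (chromosome X, 168795099 to 169304440) are wide, so their values are uncertain. Mural markers summed to 332 FPKM in molar and 852 in incisor, with 2 of 14 called higher in molar (Kcnj8 and Des) and 3 lower in molar (Rgs5, Tagln and Pdgfrb), and Rgs5 (127 in molar, 537 in incisor) and Tagln (12.4 and 153) had the highest means of both tissues, while in molar Kcnj8 (108) and Acta2 (48.4) stood above Tagln. Endothelial markers summed to 331 in molar and 22.7 in incisor, with 14 of 15 called higher in molar, led by Egfl7 (120 in molar, 7.49 in incisor) and Emcn (87.6 and 0.756), while Cldn5 and Robo4 were listed at 0 in incisor. Arterial endothelial markers summed to 47.1 in molar and 38.4 in incisor, with 1 of 5 tested, Gja4 (28.5 in molar, 9.33 in incisor), called. Endothelial genes as a class were thus far more abundant in molar. The arterial set differed little in sum, but Unc5b (14.8 in molar, 24.5 in incisor) held most of its incisor sum. Of the 6 arterial genes, 4 were listed higher in molar and 2 in incisor, with Gja5 and Sox17 listed at 0 in incisor. Dental epithelial markers summed to 2641 in molar and 23496 in incisor, almost all of it Amelx (1937 in molar, 20642 in incisor) and Ambn (614 and 1782), with 8 of 12 called lower in molar. Macrophage markers summed to 8499 in molar and 5565 in incisor, with 3 of 10 called higher in molar (C1qa, C1qc and Aif1) and 2 lower (Cx3cr1 and Mpeg1), and the most abundant were Lyz2 (3340 in molar, 1903 in incisor) and C1qb (2145 and 1679). The sorted fractions therefore held abundant RNA of macrophages and enamel organ beside that of mural cells. Odontoblast markers summed to 166 in molar and 482 in incisor, 2 of 6 called lower in molar (Dspp and Ibsp), with Col1a1 at 154 and 316 and Dspp at 0.921 and 109. Schwann cell markers were low, 7.36 in molar and 32.3 in incisor, with Cdh19 (1.38 and 0.213) called higher in molar of 5 tested, and S100b (3.22 and 16.1) and Mbp (1.72 and 8.17) not called. Immediate-early genes, which cells switch on when handled, summed to 7411 in molar and 772 in incisor, with 14 of 16 called higher in molar, led by Ier3 (2859 and 60.1) and Zfp36 (1243 and 148).

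Among the receptors, only Notch2 was called. Notch2, the broadly expressed receptor (chromosome 3, 98013538 to 98150367), had 4.65 FPKM in molar, against 21.3 FPKM in incisor, a log2 fold of -2.19 with q = 0.00124 in the authors' deposited table. Notch1 (chromosome 2, 26457902 to 26503822) had 4.54 FPKM in molar, against 3.28 in incisor, a log2 fold of 0.47 with q = 0.334 in the authors' deposited table. Notch3, the receptor of mural cells (chromosome 17, 32120893 to 32166852), had 5.07 FPKM in molar, against 2.57 in incisor, a log2 fold of 0.98 with q = 0.184 in the authors' deposited table. Notch4, an endothelial receptor (chromosome 17, 34564295 to 34588543), was close to 0 in both, at 0.241 FPKM in molar and 0.0269 in incisor. Its q was 0.218 in the authors' deposited table. In molar, Notch1, Notch2 and Notch3 lay close together and Notch4 far below, whereas in incisor Notch2 stood above the rest. Without replicate error it cannot be said which of the close levels differ.

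Written as shares, Notch2 made up 32.1% of all receptor FPKM in molar and 78.4% in incisor. Notch3 held 34.9% in molar and 9.46% in incisor, and Notch1 held 31.3% in molar and 12.1% in incisor. The 4 receptors summed to 14.5 FPKM in molar and 27.2 FPKM in incisor. The lower receptor sum in molar was that of Notch2, since the other receptors were listed higher in molar. Notch2 was 0.918 times as abundant as Notch3 in molar and 8.29 times in incisor. Mural markers, macrophage markers and epithelial markers moved as given above, and their part in the Notch2 difference was not tested. Notch2 also shares 5.02% of its exon bases with Gm42820 on the same strand in GENCODE M21, so reads of both cannot be told apart there.

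Of the ligands, Jag1 went one way and the Delta-like pair the other. Jag1, a Jagged ligand made by many cell types including endothelium and epithelium (chromosome 2, 137081451 to 137116520), had 1.96 FPKM in molar, against 6.50 in incisor, a log2 fold of -1.73 with q = 0.0431 in the authors' deposited table. Dll1 (chromosome 17, 15367354 to 15375823), a Delta-like ligand of arterial endothelium and of many progenitor cells, had 2.99 FPKM in molar, against 0.234 in incisor, a log2 fold of 3.68 with q = 0.00124 in the authors' deposited table. Dll4, the Delta-like ligand of sprouting and arterial endothelium (chromosome 2, 119321199 to 119335666), had 1.91 FPKM in molar, against 0.280 in incisor, a log2 fold of 2.77 with q = 0.0154 in the authors' deposited table. All 3 were low genes, none of which reached 3 FPKM in molar, and Jag1 alone passed 1 FPKM in incisor. The summed ligand FPKM was nearly equal, 6.86 in molar and 7.01 in incisor, while its make-up was not. Jag1 held 28.5% of it in molar and 92.7% in incisor. Dll1 held 43.6% in molar and 3.33% in incisor, and Dll4 held 27.8% in molar and 3.998% in incisor.

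The molar values of these ligands lay in a range that genes of olfactory, vomeronasal and taste receptors also reached, a set of 1488 rows used as a low-level yardstick with its values known. Of those rows 82.1% were above 0 in molar and 3.43% in incisor, and their 99th percentile was 3.78 FPKM in molar and 0.135 in incisor. Dll1 in molar exceeded 98.5% of them, Dll4 97.0%, Jag1 97.0% and Heyl 98.99%. In incisor, Dll1 exceeded 99.4%, Dll4 99.5% and Jag1 all of them. The part of this low-level signal in the Dll1 and Dll4 difference was not tested. Dll4 and Dll1 also share exon bases with genes on the opposite strand, 5.56% for Dll4 (Gm14207) and 20.5% for Dll1 (A930024N18Rik) in GENCODE M21. Use of strand in counting is not given in the sources used here, so reads of these partners cannot be told apart. The Dll4 row begins 4585 bases before the RefSeq gene. The 14 of 15 endothelial markers higher in molar moved with Dll4, and their part in it was not tested.

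**Figure D2:**
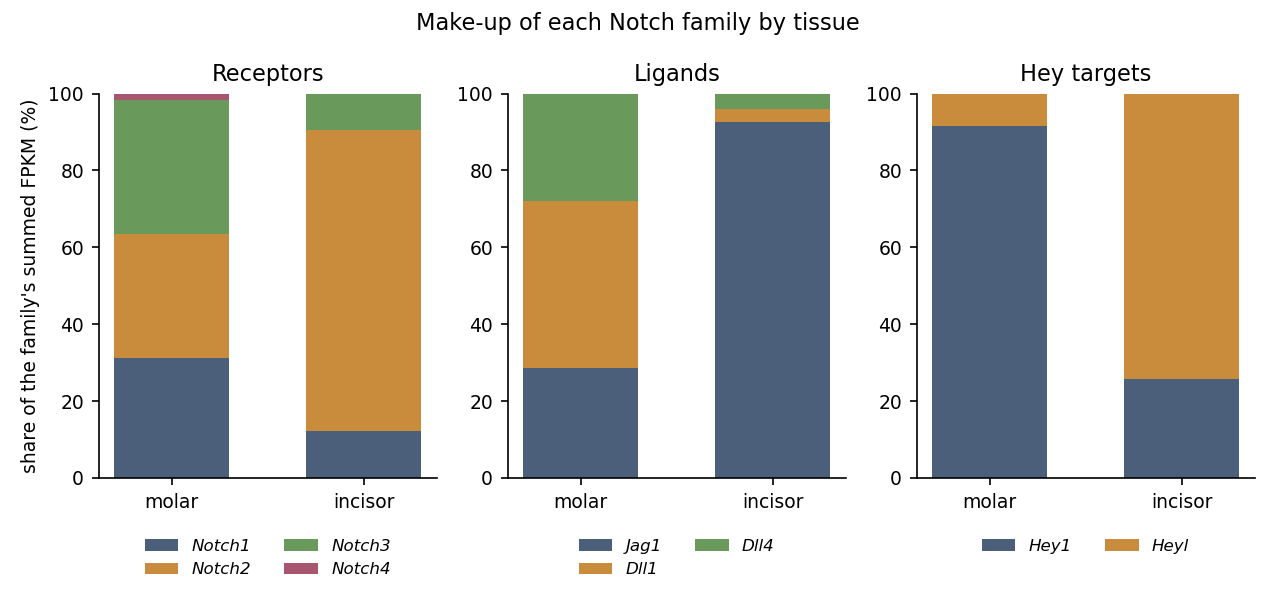
Share of each family's summed FPKM held by each member, molar left and incisor right, as stacked bars that start at 0, from 1 combined value per tissue. Notch2 holds 32.1% of receptor FPKM in molar and 78.4% in incisor, Jag1 28.5% and 92.7% of ligand FPKM, and Heyl 8.37% and 74.4% of Hey FPKM.

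The sequences upstream of the called receptor and ligands are shown because these genes fall into a pair lower in molar (Notch2 and Jag1) and a pair higher in molar (Dll1 and Dll4). They are the 250 bases before the RefSeq start on GRCm38.p6, the assembly of mm10, at chr3:98013288-98013537 (plus strand) for Notch2, chr2:137116521-137116770 (minus) for Jag1, chr17:15375824-15376073 (minus) for Dll1 and chr2:119325534-119325783 (plus) for Dll4. Each is printed 5′ to 3′ along its gene, and capitals mark the GC box GGGCGG on either strand.
Notch2: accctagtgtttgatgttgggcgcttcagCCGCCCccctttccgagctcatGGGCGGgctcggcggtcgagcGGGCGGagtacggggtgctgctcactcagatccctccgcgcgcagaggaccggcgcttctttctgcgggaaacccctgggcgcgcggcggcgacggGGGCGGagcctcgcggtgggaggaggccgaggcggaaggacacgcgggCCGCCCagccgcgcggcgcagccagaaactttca
Jag1: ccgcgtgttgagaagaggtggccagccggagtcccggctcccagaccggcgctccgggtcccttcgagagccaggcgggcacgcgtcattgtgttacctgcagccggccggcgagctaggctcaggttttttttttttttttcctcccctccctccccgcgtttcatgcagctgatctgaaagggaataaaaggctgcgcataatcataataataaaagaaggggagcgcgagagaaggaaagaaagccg
Dll1: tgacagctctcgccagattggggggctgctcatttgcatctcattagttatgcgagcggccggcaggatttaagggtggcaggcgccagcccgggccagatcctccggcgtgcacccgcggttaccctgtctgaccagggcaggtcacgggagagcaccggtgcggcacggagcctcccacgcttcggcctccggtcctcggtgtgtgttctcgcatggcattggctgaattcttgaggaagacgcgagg
Dll4: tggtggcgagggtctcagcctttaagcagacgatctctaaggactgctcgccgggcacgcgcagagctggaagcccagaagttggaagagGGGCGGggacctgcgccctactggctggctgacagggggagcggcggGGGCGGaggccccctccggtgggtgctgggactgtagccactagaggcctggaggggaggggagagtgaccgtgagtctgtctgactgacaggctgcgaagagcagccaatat
The GC box stood 5 times before Notch2 and 2 times before Dll4 and was not found before Jag1 or Dll1, and 32.7% of 32851 promoter windows of that length held it. The Rbpj core TGGGAA, searched on both strands, was in none of the 8 windows of the 7 members with an entry (Notch1 to Notch4, Jag1, Dll1 with 2 starts, and Dll4), and 21.6% of all windows held it. Its longer form GTGGGAA, which contains the core, was in 5.42% of all windows, and the E-box CACGTG, a palindrome read once, in 6.02%, and neither was in these 8. All these windows were rich in G and C, at 72% for Notch2, 57.2% for Jag1, 64% for the Dll1 window shown and 65.6% for Dll4, against a median of 52.4% over all windows. The ratio of observed to expected CpG was 1.06 for Notch2 and 0.980 for Jag1, the pair lower in molar, and 0.825 for the Dll1 window shown and 0.557 for Dll4, the pair higher in molar, against a median of 0.374 over all windows. Of the features read here, this ratio alone ran higher in the pair lower in molar than in the other pair. The windows were chosen by the calls of their genes, and a link of the ratio to direction was not tested. The other Dll1 window stood at 0.664, and the uncalled Notch1, Notch3 and Notch4 at 0.588, 0.595 and 0.226. Hey1, Heyl and Hes1 had no entry.

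The Hey genes, basic helix-loop-helix repressors switched on by Notch, were called in opposite directions. Hey1, the Hey gene of arterial endothelium and also of bone-forming mesenchyme (chromosome 3, 8663359 to 8667038), had 41.1 FPKM in molar, against 9.14 in incisor, a log2 fold of 2.17 with q = 0.000664 in the authors' deposited table. Heyl, the Hey gene known from mural cells (chromosome 4, 123233556 to 123249870), had 3.76 FPKM in molar, against 26.5 in incisor, a log2 fold of -2.82 with q = 0.00176 in the authors' deposited table. Hes1, a repressor that many signals besides Notch induce (chromosome 16, 30065357 to 30067796), had 39.4 FPKM in molar, against 20.6 in incisor, a log2 fold of 0.93 with q = 0.158 in the authors' deposited table. Hey1 and Hes1 were the most abundant members in molar, and Heyl was the most abundant in incisor. Hey1 was 10.9 times as abundant as Heyl in molar and 0.345 times in incisor.

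Hey1 made up 91.6% of the Hey pair's FPKM in molar and 25.6% in incisor, and the pair summed to 44.9 in molar and 35.6 in incisor. The sum of both Hey genes thus differed less than either gene. Hey1 exceeded 88.2% of tested rows in molar and 75.1% in incisor, and Heyl exceeded 60.0% in molar and 87.3% in incisor. On the scale with a pseudocount of 1, 5.97% of tested rows had a higher fold than Hey1 and 0.986% a lower fold than Heyl. Endothelial and immediate-early markers moved toward molar with Hey1, with the sums given above. The mural sum was higher in incisor, as Heyl was, through Rgs5 and Tagln, and the Tagln row is uncertain. Of the 14 mural markers, 11 were listed higher in incisor and 3 of them were called. The part of these markers in either difference was not tested. Not all mural genes moved with Heyl, since Kcnj8, a pericyte potassium channel subunit (108 FPKM in molar, 16.0 in incisor), and Des, the filament protein desmin (3.17 and 0.155), were called higher in molar. Hey2, another vascular Hey gene, was low, with 0.882 FPKM in molar, against 0.992 in incisor, and missed the threshold in the authors' deposited table (q = 0.774).

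**Figure D3:**
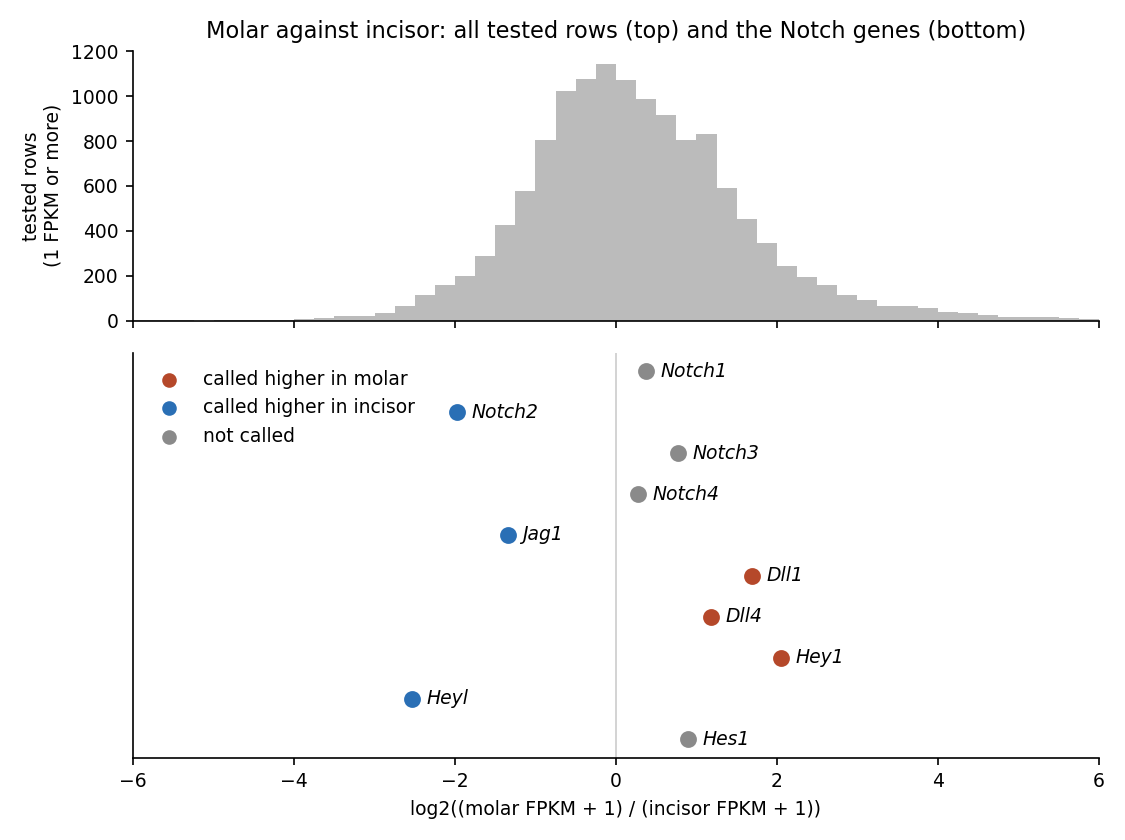
Top, number of tested rows with at least 1 FPKM in either tissue by log2((molar FPKM + 1) / (incisor FPKM + 1)). Bottom, the same quantity for the 10 members, coloured by the authors' call. Heyl (-2.53) and Notch2 (-1.98) lie at the low end and Hey1 (2.06) at the high end, and the uncalled members lie between 0 and 1.

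The fold of all genes depended on transcript length, and the members span a wide range of lengths. Over 12706 tested rows of at least 1 FPKM with a known length, divided into 10 equal classes by length, the median log2 fold with a pseudocount of 1 was 1.06 in the shortest class, up to 1106 bases, and -0.28 in the longest, from 6200 bases. Hes1, with 1468 bases the shortest member, had 0.90 on this scale, close to the 0.92 of its length class. Hey1, with 2423 bases, had 2.06, against 0.03 in its class. Hes1 therefore lay where short genes lay in general, and Hey1 did not. Relative to their class, Notch2 stood at -1.70, Jag1 at -1.09 and Heyl at -2.29, and Dll1 stood at 1.90 and Dll4 at 1.39. The uncalled receptors Notch1 and Notch3, in the same length class as the longer Notch2, stood at 0.65 and 1.04. Each of the 6 called members kept its direction against genes of like length. The medians of their classes, between -0.28 and 0.03, were too small to turn these folds, so their direction was not tested this way. The comparison was added after the data were seen.

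**Figure D4:**
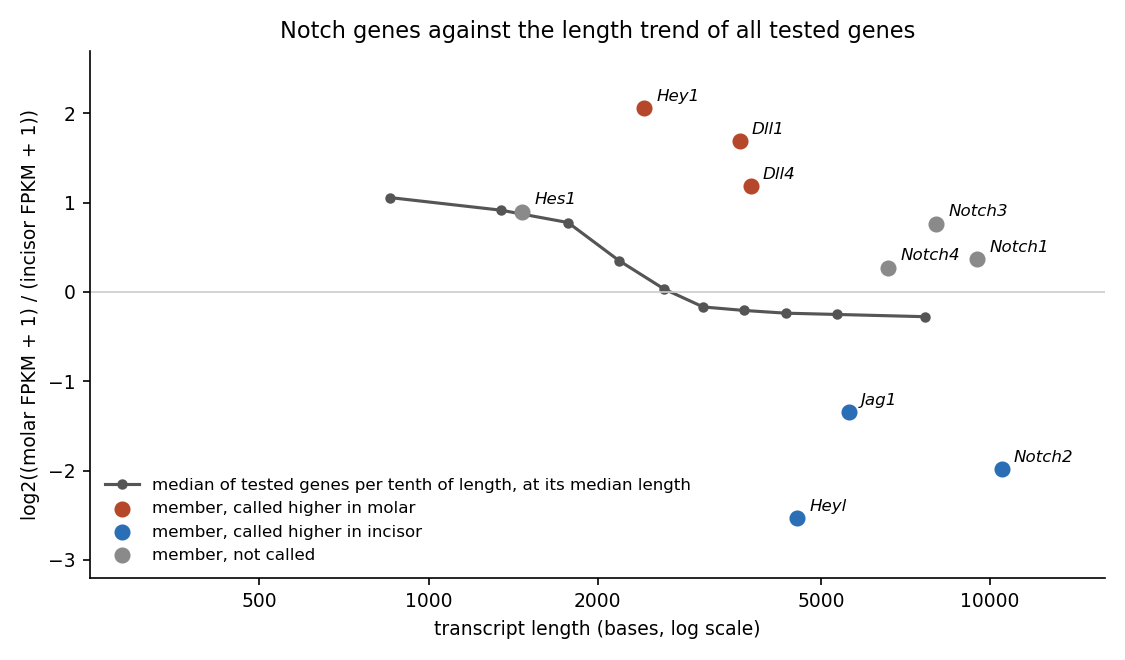
log2((molar FPKM + 1) / (incisor FPKM + 1)) against transcript length on a log scale. The line joins the medians of tested genes in 10 classes of length, and points are the members, coloured by the authors' call. The line runs between 1.06 for the shortest and -0.28 for the longest genes, and Hes1 lies on it while the called members lie away from it.

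Of 55 other Notch pathway genes, 54 were tested. By the q values of the authors' deposited table, 6 were higher in molar and 7 lower in molar, 13 in all. That is 24.1% of those tested, where 16.2% of all tested rows were called. All 13 lay among the 46 genes of the list at 1 FPKM or more, a level at which 21.8% of all rows were called. The median log2 fold of the list with a pseudocount of 1 was 0.16, against 0.21 over all tested rows. The list's median was -0.12 with equal FPKM totals and -0.67 with a minimum of 5 FPKM, settings for which no median over all rows is given. Calls were found among enzymes that modify and cut the receptor, among nuclear factors and among ubiquitin ligases. Of the other ligands 0 of 5 were called, and of the other tested targets 0 of 6. Only 1 of these ligands and 3 of these targets reached 1 FPKM in either tissue. Groups this small and low cannot show that calls differ by role.

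The receptor-cutting enzymes divided by subunit. Subunits of gamma-secretase include nicastrin, Aph1 and Pen-2. Psenen, which encodes Pen-2, had 311 FPKM in molar, against 22.8 in incisor, a log2 fold of 3.77 with q = 0.000664 in the authors' deposited table. Aph1a had 10.5 FPKM in molar, against 1.17 in incisor, with a log2 fold of 3.17 and q = 0.000664 in the authors' deposited table. Nicastrin, which receives the substrate and is encoded by Ncstn, had 8.92 FPKM in molar, against 98.9 in incisor, with a log2 fold of -3.47 and q = 0.00124 in the authors' deposited table. Subunits of this complex were therefore called in both directions. Psenen is short, 708 bases, and its class had a median of 1.06 against its own 3.72 on the scale with a pseudocount of 1. The Ncstn row runs 39543 bases beyond the RefSeq gene and the Aph1a row 6047 bases beyond, and each overlaps a neighbour on the opposite strand (Copa and Car14), so these 2 values are uncertain. Adam10, the metalloprotease that makes the cut before gamma-secretase, had 6.19 FPKM in molar, against 16.7 in incisor in the authors' deposited table (q = 0.0249). Adam17, a related protease with 6.74 in molar and 19.4 in incisor, was not called (q = 0.210), nor was Psen2 (8.74 and 14.5).

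Of the enzymes that put sugars on the receptor, 2 of 6 were called, both lower in molar, where 4.28% of all tested rows were. Poglut1, which adds O-glucose to the receptor's EGF-like repeats, had 4.45 FPKM in molar, against 22.9 in incisor, with a log2 fold of -2.37 and q = 0.00799 in the authors' deposited table. Eogt, which adds O-linked N-acetylglucosamine, had 2.24 FPKM in molar, against 9.45 in incisor in the authors' deposited table (q = 0.0259). The Fringe genes, whose enzymes tune ligand choice, were not called. Rfng, the uncalled enzyme of the group with the highest mean of both tissues, stood at 3.49 FPKM in molar and 8.36 in incisor, while Mfng (6.49 in molar, 2.78 in incisor) and Lfng (3.83 and 1.86) were listed the other way.

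In the nucleus, 3 of 14 genes were called higher in molar and 1 lower, where all tested rows gave 11.9% and 4.28%. Rbpj, the DNA-binding partner of all Notch receptors, had 6.06 FPKM in molar, against 1.95 in incisor, a log2 fold of 1.64 with q = 0.0110 in the authors' deposited table. The corepressor Ctbp1 (16.8 in molar, 3.15 in incisor, q = 0.00326) and the deacetylase Hdac1 (74.6 in molar, 29.4 in incisor, q = 0.0246) were also higher in molar. Maml2, a Mastermind coactivator that binds the Notch and Rbpj pair, had 3.58 FPKM in molar, against 12.5 in incisor in the authors' deposited table (q = 0.0212). The Maml2 row starts at 13619989 on chromosome 9 and the RefSeq gene at 13296561, so the row does not cover the whole gene and its value is uncertain. Coactivator and repressor genes did not move as a block, and Snw1, the most abundant of the group, was nearly level at 79.4 in molar and 84.5 in incisor. Of 13 ubiquitin ligase and endocytosis genes, Mib2, which acts on ligands (1.85 in molar, 0.0697 in incisor, q = 0.0118), was higher in molar, at a level under the 3.78 FPKM given above, and Dtx4, a Deltex ligase (3.12 in molar, 9.74 in incisor, q = 0.0310), lower. Dtx3, the most abundant uncalled gene there, stood at 41.9 in molar and 20.4 in incisor. Of other ligands and targets those with the highest mean of both tissues were Dlk1, a Delta-like relative (1.53 in molar, 0.391 in incisor), and Hes6 (9.38 and 6.50), neither called.

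**Figure D5:**
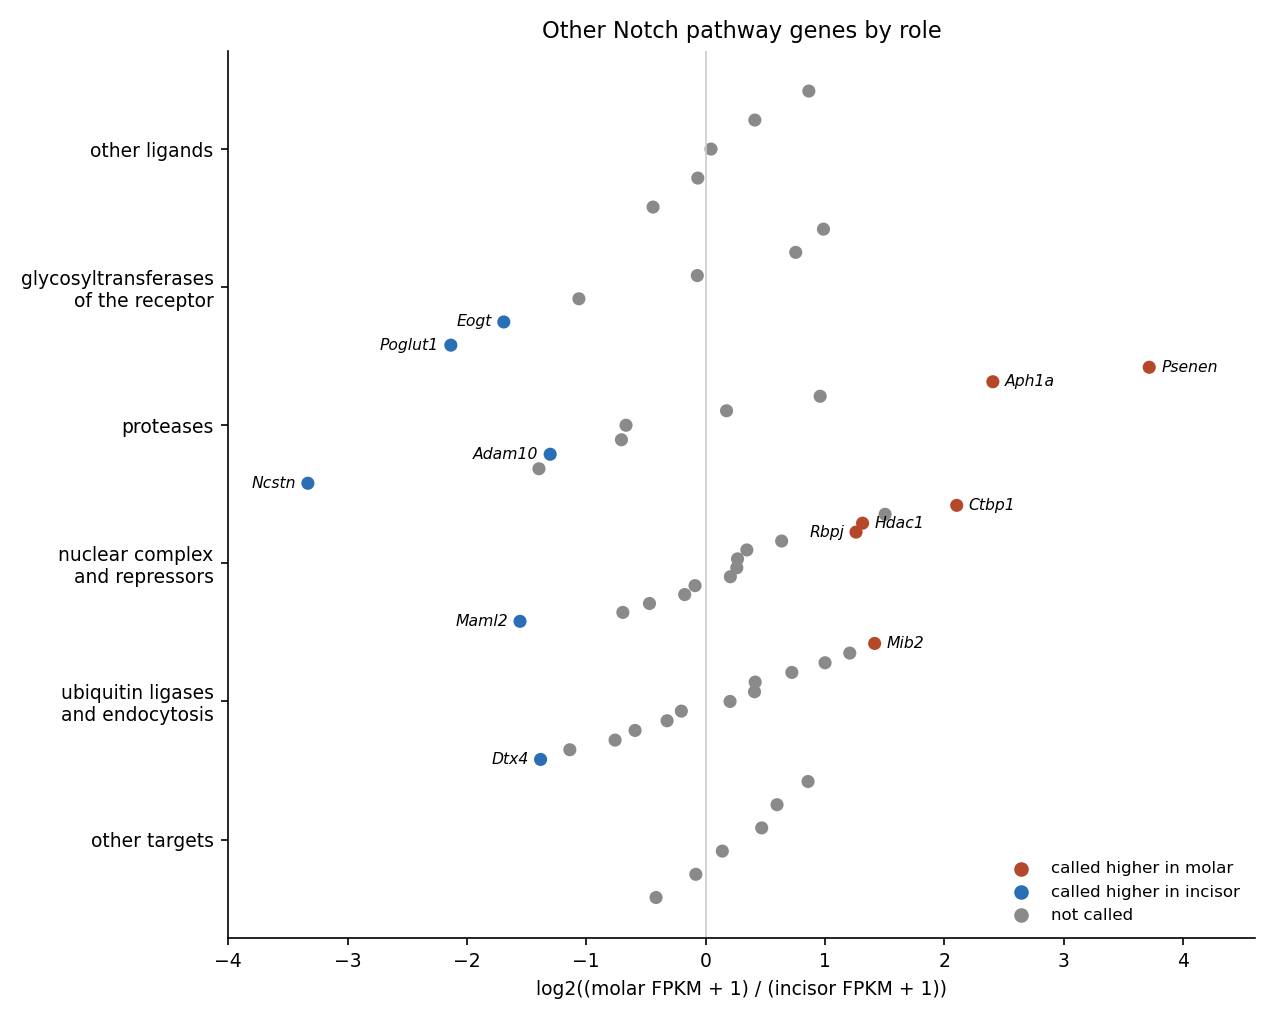
log2((molar FPKM + 1) / (incisor FPKM + 1)) of 53 of the 54 tested pathway genes by role, 1 point per gene, with genes called by the authors' q coloured and named. Psenen (3.72) and Ncstn (-3.33), subunits of the same protease, are the outermost points on either side. The Ncstn value is uncertain, since its row runs 39543 bases beyond the RefSeq gene. Psenen is 708 bases long, in a length class with a median of 1.06.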

How the data were processed

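RNA sequencing compared sorted FDG-positive pulp cells of molar (2 libraries) and incisor (2 libraries). Per the submitters' processing notes, Trim Galore, HISAT2 version 2 and edgeR were used with build mm10. What each did, and which annotation, scaling and table-making tool were used, is not given in the sources used here. Per the file headers, the authors' deposited table holds 1 FPKM per tissue, the log2 fold, a test statistic (a score that was not used here), and p-value and q-value columns. The unit FPKM is read from the column layout, which is that of a Cuffdiff gene table. The authors' log2 fold equals log2 of molar over incisor FPKM within 0.01 in all but 1 of 16351 rows above 0 in both tissues.

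The description label links each condition to its tissue. With 1 combined value per tissue no count model was fitted, and called means a tested row (18770 of 24216) with the authors' q under 0.05. The smallest q, 0.000664, was shared by 1414 rows. Repeated symbols were represented by their most abundant row (273 rows set aside). Start positions were moved by 1 base to be 1-based, after which 6 of 10 member rows equalled the RefSeq GRCm38.p6 interval. Transcript lengths came from GENCODE M21, with a length for 97.1% of rows. Promoters came from RefSeq. The members and lists were chosen with earlier results of these data known. All 10 members were named with both values. Of the pathway list, every called gene but 1, which is not reported here, was named and, per role, the uncalled one of highest mean over both tissues. Of each marker list, the 2 genes of highest mean and those needed for a small count were named. Python 3.11.15, pandas 2.3.3 and numpy 2.4.6 were used. Alternatives covered the pseudocount, scaling, minimum FPKM and call rule.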

Additional observations from a re-analysis of the deposited data

How the results depend on the processing

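No paired analysis was possible because the table holds 1 combined value per tissue, and for the same reason no library could be left out. Over 7 settings of pseudocount and scaling per member, 2 of 70 folds turned direction, both of uncalled genes, Notch1 with equal FPKM totals (-0.13) and Hes1 against genes of like length (-0.02). A pseudocount cannot turn a fold, and every scaling shift was smaller than the smallest fold of a called member, -1.73 for Jag1. The count is therefore no test of the called directions. Equal totals moved all log2 folds by 0.60, median centring by 0.21 and equal upper quartiles by 0.49 the other way. Jag1 and Dll4 were no longer called at q under 0.01. At q under 0.01 the 54 tested other pathway genes gave 3 higher in molar and 2 lower. All 18770 tested rows then gave 1651 higher in molar and 426 lower. The called share of the pathway list was thus not above that of all tested rows at this threshold. With the authors' own mark, and with a minimum of 1 FPKM, the 3 and 3 members called were the same in number. The median log2 fold of the members, 0.57 with a pseudocount of 1, was 0.94 with 0.1, 0.296 with 5, 0.77 with a minimum of 1 FPKM, -0.29 with a minimum of 5 FPKM, 0.42 with median centring and 0.23 with equal totals. That of the other pathway genes, 0.16, was 0.28 with 0.1, 0.0508 with 5, 0.19 with a minimum of 1 FPKM, -0.67 with a minimum of 5 FPKM, 0.0493 with median centring and -0.12 with equal totals. The cause of these shifts was not tested. With Jag2 and Dll3 among the ligands, Jag1 held 26.6% in molar and 91.1% in incisor. Depth is unknown, so values near 0 carry no stated limit.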

Other observations

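By distance over the 2 values log2(molar FPKM + 1) and log2(incisor FPKM + 1), the tested genes most like Hey1 included Ggh (41.2 FPKM in molar, 8.89 in incisor) and Snx15 (39.7 and 9.25). Those most like Heyl were Nsf (3.67 in molar, 26.4 in incisor), Calb1 (3.86 and 26.4) and Gsk3b (3.70 and 25.6). Those most like Notch2 were Sfrp4 (4.70 in molar, 20.9 in incisor), Pomk (4.73 and 21.6) and Cbx5 (4.52 and 22.0). Such likeness rests on 2 numbers, and 102, 74 and 156 genes lay within 0.5 of Hey1, Heyl and Notch2 on this scale.

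Of all stretches of 32 bases in the Notch1 transcript, which is 9488 bases long, 14.0% also occur in transcripts of other genes, the overlapping genes 0610009E02Rik and Gm13568. The share was 15.9% for Dll1, 6.50% for Notch3, 4.92% for Dll4 and 4.37% for Notch2, and 0 for Notch4, Jag1, Hey1, Heyl and Hes1.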
